A study of Mus musculus with 4 samples.

Results

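AII-like amacrine cells are retinal interneurons that were selected here from single-cell RNA-seq of mouse retina by their own transcripts. A cell was taken when it had UMIs (counted RNA molecules) of Slc6a9, Lamp5 and Tfap2b, and of Scn1a or Stac2. It had no UMI of Slc17a6, under 15 Rp1 UMIs per 10000, and UMIs of fewer than 3 of the 5 glial genes Rlbp1, Slc1a3, Aqp4, Sox9 and Dkk3. The rule found 486 of 26543 cells. These 12 genes chose the cells, so their levels are given below as a description.

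Cells came from Abca4-/-Rdh8-/- mice on a C57BL/6J background, aged 6 weeks, which lack 2 proteins that clear retinal from photoreceptors and are damaged by bright light. Each of 4 groups was a single library of 4 pooled retinae from 2 mice, so no group had a replicate. The unbleached vehicle group got DMSO and no bleaching light. The bleached vehicle group got DMSO, and the rolipram and BC11-38 groups got 2 mg/kg of rolipram, an inhibitor of the cAMP phosphodiesterase PDE4, or of BC11-38, an inhibitor of PDE11. The bleached groups were kept in the dark for 24 h, injected intraperitoneally, given 10000 lux of white light for 30 min after that, and collected at day 1. All groups, the controls included, carried both deletions, and a further drug group of the series was not analysed here. In the unbleached group the labels do not give the dark period or pupil dilation, so the bleaching comparison cannot be told apart from differences in these steps.

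In the mammalian retina, the AII cell is the narrow-field glycinergic amacrine cell of the rod pathway. It is excited by rod bipolar cells, passes the signal to ON cone bipolar cells through gap junctions that contain connexin 36 (Gjd2), and inhibits OFF pathways with glycine. Dopamine and cAMP-dependent protein kinase are known to uncouple AII cells from each other, which makes cyclic nucleotide signalling a known regulator of this cell.

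The cells numbered 145 in the unbleached vehicle, 115 in the bleached vehicle, 132 in the rolipram and 94 in the BC11-38 library. These were 2.55% (exact Clopper-Pearson 95% interval 2.15 to 2.99%), 1.69% (1.40 to 2.02%), 1.67% (1.40 to 1.98%) and 1.53% (1.24 to 1.87%) of each library's cells. The share was highest in the unbleached library, and the other 3 intervals overlapped. Depth differed as well, since the median AII-like cell held 9521, 8228, 6233 and 7747.5 UMIs in the same order. With every cell thinned to 3000 UMIs, and shallower cells left out, the shares were 2.52%, 2.20%, 2.06% and 1.69%, and neighbouring intervals overlapped. Intervals in this text cover counting error only, and a lower share of cells cannot be told apart from a higher share of other cells.

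By a count of further AII markers the label held for most of the cells, and less so outside the bleached vehicle library. A list of 13 AII markers has 9 that the rule did not use: Gjd2, Prox1, Dab1, Nfia, Dner, Calb2, Car2, Cdh11 and Sncg. At least 4 of these were seen in 96 of 145, 104 of 115, 91 of 132 and 70 of 94 cells, in the order unbleached vehicle, bleached vehicle, rolipram and BC11-38. These cells are called marker-rich (361 in all) and the other 125 marker-poor, a split that was chosen after the data were seen. Marker-rich cells made up 66.2% (57.9 to 73.9%), 90.4% (83.5 to 95.1%), 68.9% (60.3 to 76.7%) and 74.5% (64.4 to 82.9%) of the AII-like cells. After thinning to 3000 UMIs the shares were 49.3%, 89.3%, 67.2% and 58.4%. The bleached vehicle library stood apart from the other 3 on both scales. Some of the 9 markers are not particular to AII cells: Car2 was seen in 86.5 to 92.3% and Nfia in 65.9 to 81.8% of Müller glia. Gjd2 was seen in at most 3.26% of Müller glia. Of AII-like cells, 72 of 145, 102 of 115, 81 of 132 and 59 of 94 had a Gjd2 UMI. Of marker-rich cells, 70 of 96, 100 of 104, 79 of 91 and 59 of 70 did.

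**Figure D1:**
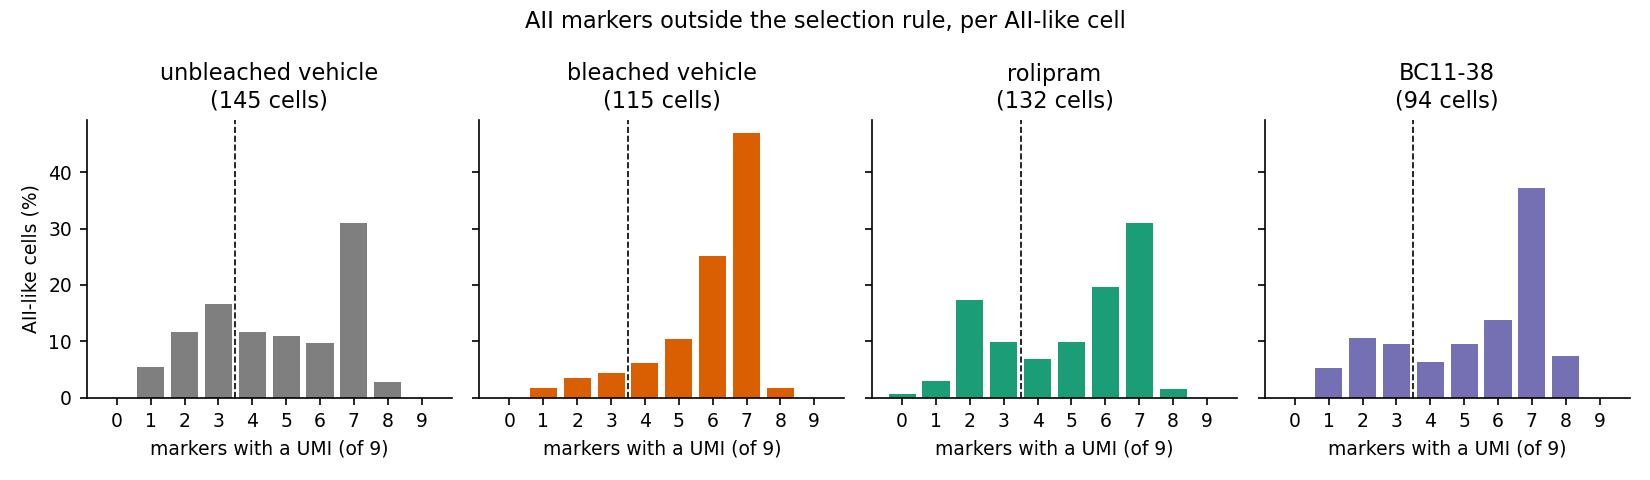
Share of AII-like cells (y axis, %) by the number of the 9 AII markers outside the rule that had a UMI in the cell (x axis), 1 panel per library. The dashed line divides marker-poor from marker-rich cells, and marker-poor cells make up 49 of 145, 11 of 115, 41 of 132 and 24 of 94 cells from left to right.

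Marker-rich cells carried the transcripts known for AII cells in all 4 libraries. Gjd2 and Dner are among the 9 markers that made the split, so their contrast with marker-poor cells is fixed by it and is given as a description. Gjd2, the gap-junction connexin of the AII to cone bipolar synapse, was at 541, 535, 635 and 551 CPM (UMIs of the gene per 1000000 UMIs summed over the cells) in marker-rich cells, in the library order given above, which holds for every set of 4 values below. In marker-poor cells Gjd2 was at 4.78, 32.3, 11.5 and 0 CPM, the last from 24 cells. Gjd2 was at 37.2, 31.6, 43.0 and 36.5 CPM in GABAergic amacrine cells, at 60.1 to 74.6 CPM in rods and at 126 to 165 CPM in bipolar cells. Dner, a Notch ligand, was at 549, 764, 757 and 590 CPM in marker-rich cells and at 54.9 to 157 CPM in marker-poor cells. Sncg was at 0 in 2 of the 4 libraries and at most 2.70 CPM in the others, and Cdh11 was seen in 4.35 to 14.9% of AII-like cells, below its share of 41.8 to 45.3% in Müller glia, so these 2 markers added little.

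Marker-poor cells held transcripts of other amacrine types. Slc17a8, which encodes the vesicular glutamate transporter VGLUT3 of a known glycinergic amacrine type, was at 717, 694, 1035 and 768 CPM in marker-poor cells. In marker-rich cells it was at 45.2, 0, 0 and 14.5 CPM. Slc17a8 UMIs were found in 22 of 145, 3 of 115, 20 of 132 and 8 of 94 AII-like cells, or 15.2%, 2.61%, 15.2% and 8.51%, against 4.76%, 7.69%, 3.70% and 3.26% of Müller glia, which should lack it (median 7413, 9992, 4632 and 5776.5 UMIs). The transcription factor gene Lhx9 was at 143, 96.9, 115 and 183 CPM in marker-poor cells and at 3.77, 0, 1.65 and 16.1 CPM in marker-rich cells. GABA genes were seen in marker-rich cells too. Gad2, a glutamate decarboxylase that makes GABA, was at 81.0, 9.45, 52.7 and 70.7 CPM there, lowest in the bleached vehicle library, and at 376 to 437 CPM in GABAergic amacrine cells. The GABAergic amacrine gate itself held 324, 93, 285 and 268 cells. A stricter set therefore took marker-rich cells without a UMI of the GABA genes or Slc17a8: 63, 95, 71 and 52 cells, called GABA-free below.

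**Figure D2:**
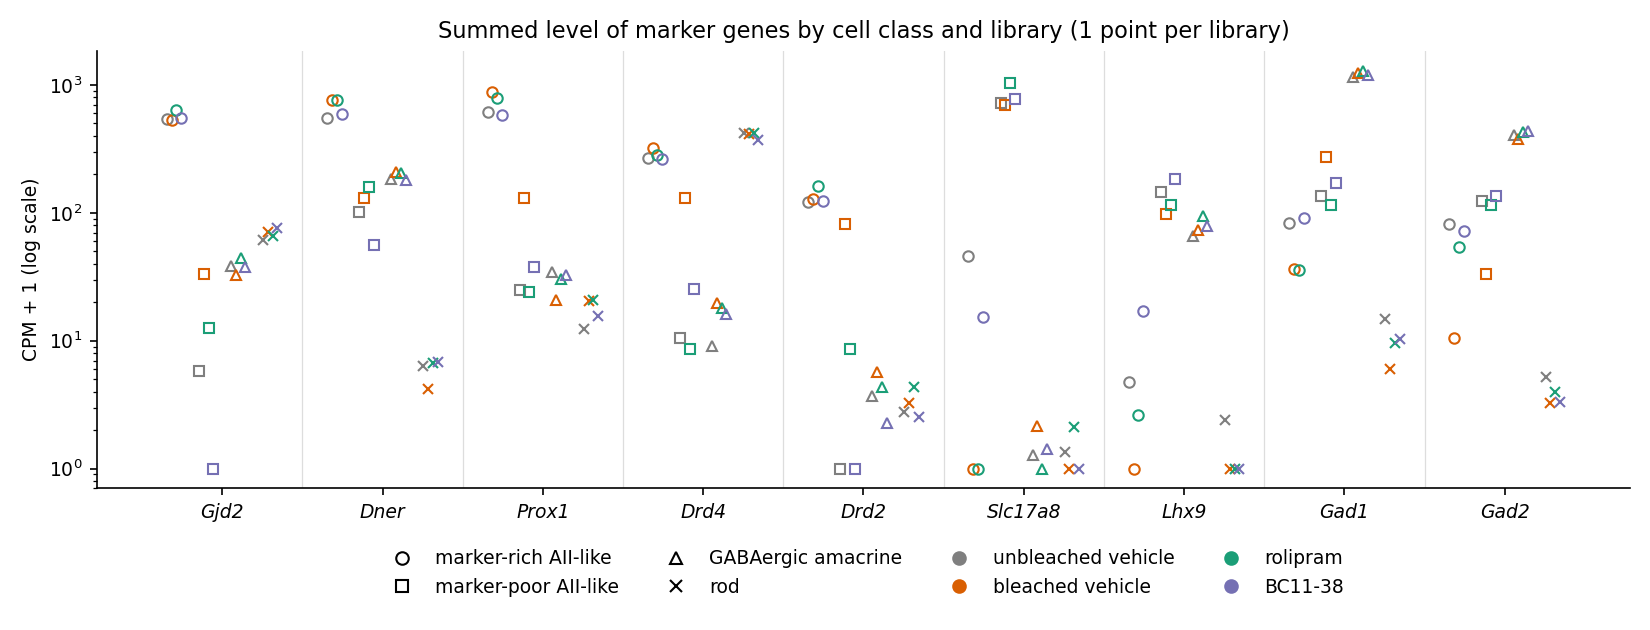
Level of 9 marker genes (y axis, CPM + 1, log scale) in marker-rich and marker-poor AII-like cells, GABAergic amacrine cells and rods, with 1 point per library and colour for the library. Gjd2 lies at 535 to 635 CPM in marker-rich cells and at 0 to 32.3 CPM in marker-poor cells, and Slc17a8 lies at 694 CPM or more in marker-poor cells.

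Rods gave a measurable background. Summed levels of 12 rod genes were 1329, 1653, 2928 and 2056 CPM in AII-like cells, against 47140 to 60850 CPM in rods, highest with rolipram. Müller glia genes summed to 255 to 292 CPM, and of 12 microglial genes 8 or 9 were at 0 in each library. The rod sum includes Rp1, and the Müller glia sum includes the 5 glial genes of the rule. The rule limited these genes, so both sums are partly set by the choice of cells. Lhx1, a horizontal cell gene, was at 0 in all 4, but other genes listed for horizontal cells were not. Calb1 was at 251 to 338, Sept4 at 65.7 to 110, Slc4a3 at 61.5 to 79.2 and Tpm3 at 41.5 to 54.7 CPM. Xist, transcribed from the inactive X chromosome of females, was at 1763, 0, 3080 and 1250 CPM, so Xist was absent from the bleached vehicle cells and present in each other library. Within the rule, the 5 cells with 10 to under 15 Rp1 UMIs per 10000 had Gjd2 at 555 CPM, and 1 cell failed only by 15 to under 20. Another 192 cells failed only for lack of Scn1a and Stac2, with Gjd2 at 15.2 CPM. No barcode of an AII-like cell was shared between libraries, although 10 to 25 barcodes were shared by each pair of libraries over all cells.

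Levels of the 5 selecting amacrine genes differed by less than 2-fold between libraries. Slc6a9, the glycine transporter GLYT1, was at 910, 1177, 1116 and 1018 CPM in AII-like cells. Lamp5, a membrane protein of certain interneurons, was at 1341, 1647, 969 and 935 CPM, lower in both drug libraries. Scn1a, a voltage-gated sodium channel, was at 260, 414, 365 and 329 CPM, and Stac2, which modulates calcium channels, at 317, 491, 364 and 354 CPM. Tfap2b, an amacrine transcription factor, was at 1328, 1215, 1558 and 1263 CPM.

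AII-like cells were compared with the 203 other glycinergic amacrine cells at 5679 genes that had at least 20 UMIs in AII-like cells of every library. In each of the 4 libraries 118 genes were at least 2-fold higher in AII-like cells and 24 at least 2-fold lower. Genes nearly absent from AII-like cells could not enter, so the higher and lower counts cannot be set against each other. The comparison is a description, as the rule set these cells apart by their transcripts. Besides Gjd2, the leading genes were Sct (the hormone secretin, 122, 136, 134 and 148 CPM against 0 to 2.85 CPM), Hao2 (a peroxisomal hydroxy acid oxidase, 131, 218, 169 and 193 against 1.76 to 8.54 CPM) and Actc1 (cardiac actin, 45.2, 109, 78.4 and 69.9 against 0 to 5.70 CPM). Hao2, which neither the rule nor the split used, was higher in marker-rich than in marker-poor cells by 7.26, 2.52, 6.99 and 6.33 on the log2 scale, and Sct by 7.16, 2.59, 5.05 and 4.34. Drd2 and Drd4, which encode D2-class dopamine receptors, were also in this set. Drd2 was at 87.1, 123, 114 and 97.9 CPM against 0 to 4.86 CPM, and Drd4 at 194, 307, 198 and 214 CPM against 12.3 to 25.6 CPM, with rods themselves at 371 to 423 CPM for Drd4. Gad1 also led here, but the other glycinergic cells were gated to have none. All 8 named lower genes, among them Calb1 and Tpm3, lost that place once cells with UMIs of the horizontal cell genes Onecut1, Onecut2 or Lhx1 were left out: Calb1 was then higher in AII-like cells, by 3.76, 4.32, 2.93 and 2.48 on the log2 scale.

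The design gives 4 comparisons, which set bleaching against its unbleached control, either drug against the vehicle under the same light, and the drugs against each other. A gene was counted when it had at least 100 UMIs over both libraries, and called different at 2-fold. With 1 library per group there was no test, so spread between mice is unknown, and the 2 drug comparisons share the bleached vehicle library. Between bleached and unbleached vehicle, 44 genes were higher and 114 lower of 4467 counted (3.54%). Rolipram against bleached vehicle gave 66 higher and 32 lower of 3526 (2.78%), and BC11-38 gave 51 higher and 32 lower of 3380 (2.46%). The drugs differed from each other at 9 and 4 genes of 3294 (0.395%).

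The counts were smaller in the narrower sets of cells, which also hold fewer UMIs. In marker-rich cells alone, 62 of 3702 genes (1.67%) differed 2-fold after bleaching, 42 of 2930 (1.43%) with rolipram, 50 of 2943 (1.70%) with BC11-38 and 13 of 2451 (0.53%) between the drugs. In GABA-free cells 18 of 2976 (0.605%), 36 of 2548 (1.41%), 35 of 2410 (1.45%) and 8 of 1782 genes (0.449%) did. Of the 10 genes named as lower after bleaching, 7 were counted in marker-rich cells and all 7 were at least 2-fold lower there. Of the 10 named as higher with rolipram 1 was counted in marker-rich cells, and of the 10 named as higher with BC11-38 4 were, each at least 2-fold higher. In GABA-free cells none of these had enough UMIs to be counted. All 10 named as lower with BC11-38, and 9 of 10 named as lower with rolipram, were counted there, with 10 and 6 of them at least 2-fold lower. All 10 named as higher after bleaching were counted in marker-rich cells, with 6 at least 2-fold higher. In GABA-free cells 9 of them were counted, with 2 at least 2-fold higher. Both sets are parts of the cells that named the genes. Bleached vehicle had the most GABA-free cells (95, against 63, 71 and 52), so genes high there were counted more readily. These counts therefore do not test whether a difference persists.

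The genes named as lower after bleaching were lower in marker-rich cells too, and several had more CPM in marker-poor than in marker-rich cells. Car3, a carbonic anhydrase, had 499 UMIs in the unbleached and 39 in the bleached vehicle library over all AII-like cells, a 7.85-fold difference (5.66 to 11.2). In marker-rich cells it had 101 and 1 UMIs, or 80.5-fold (14.1 to 3212), and in GABA-free cells 86 and 0, so the fold was larger without the marker-poor cells. Camk2n1, an inhibitor of CaM kinase II, was at 646, 104, 737 and 571 CPM, with 1806, 1259, 2255 and 2061 CPM in marker-poor and 188, 20.1, 84.1 and 178 CPM in marker-rich cells. It was 9.38-fold lower after bleaching in marker-rich cells (5.71 to 16.4) and 5.41-fold lower in GABA-free cells (2.89 to 11.05). Hpgd, a prostaglandin dehydrogenase, was at 249 and 36.3 CPM in unbleached and bleached vehicle, and 9.14-fold lower after bleaching in marker-rich cells (5.18 to 17.6). Vgf, a neuropeptide precursor, had 148 and 1 UMIs, or 99.96 against 1.10 CPM, and was at 19.6 and 24.2 CPM with rolipram and BC11-38. Opcml, a cell adhesion gene, had 120 and 2 UMIs, and 44 and 2 in marker-rich cells. Vstm2l, Trhde and Gad2 were at 195, 134 and 92.5 CPM in the unbleached and 27.5, 12.1 and 11 CPM in the bleached vehicle cells.

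In GABA-free cells, which have no Gad2 by choice, the other genes named here were also lower after bleaching, on few UMIs from few cells. The UMIs in unbleached and bleached vehicle were 83 and 1 for A930001A20Rik, 51 and 8 for Vstm2l (6.79-fold, 3.199 to 16.6), 36 and 0 for Hpgd, 35 and 1 for Vgf, 17 and 0 for Opcml and 16 and 0 for Trhde. The unbleached UMIs came from 8 of 63 cells for Car3, from 5 for A930001A20Rik, from 5 for Hpgd and from 17 for Vstm2l and for Camk2n1, and 77.1% of the Vgf UMIs lay in 1 cell. The drug libraries were mixed there: Camk2n1 was 3.71-fold higher with rolipram than in bleached vehicle (1.83 to 8.02), while with BC11-38 it had 9 UMIs against 12. Car3 had 2 UMIs with rolipram and 23 with BC11-38. The share of marker-poor cells was lower in bleached vehicle as well, and its part in the differences over all AII-like cells was not tested.

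The neuropeptide gene Cartpt, first among the genes higher after bleaching, had 92.5% of its 292 bleached vehicle UMIs in 1 cell. Tac2, first for BC11-38, had all 144 UMIs in 1 cell.

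A second group of genes was higher in bleached vehicle than in all other libraries, and the direction held in marker-rich and GABA-free cells. The fold over unbleached vehicle was smaller in GABA-free than in all AII-like cells for Wfs1 (2.05-fold), Itga4 (1.80-fold) and Epha7 (1.47-fold). For Id2 it was 3.05-fold in both. Id2, an inhibitor of basic helix-loop-helix transcription factors, was at 111, 340, 76.1 and 58.5 CPM in all AII-like cells and at 92.3, 352, 49.4 and 41.8 CPM in marker-rich cells. The bleached vehicle value stood above all 3 others with no overlap of intervals. It was 3.05-fold higher than unbleached (2.52 to 3.71), 4.47-fold higher than with rolipram (3.42 to 5.92) and 5.81-fold higher than with BC11-38 (4.25 to 8.11). Id2 UMIs were seen in 70 of 115 bleached vehicle cells, against 44 of 145, 32 of 132 and 23 of 94. Thinned to 3000 UMIs, Id2 was seen in 43.7% of bleached vehicle cells and 19.0%, 16.0% and 11.2% of the others. Müller glia had Id2 in 51.6%, 45.3%, 55.6% and 66.3% of cells, with no excess in bleached vehicle, and rods had at most 4.64 CPM.

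Wfs1, an endoplasmic reticulum membrane protein known from Wolfram syndrome, was at 82.4, 254, 34.6 and 24.2 CPM. It was 3.09-fold higher in bleached than in unbleached vehicle (2.47 to 3.87), 7.35-fold lower with rolipram (5.01 to 11.1) and 10.5-fold lower with BC11-38 (6.59 to 17.8). In GABA-free cells Wfs1 was at 130, 265, 39.2 and 25.2 CPM. GABAergic amacrine cells had Wfs1 in the same order, at 85.9, 206, 60.1 and 41.6 CPM, so the pattern was not particular to AII-like cells. In rods it was at 15.02 to 24.4 CPM.

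Itga4, an integrin subunit, was at 64.2, 178, 42.6 and 42.0 CPM, and Fgf2, a growth factor known to be induced by retinal injury, at 58.1, 135, 43.8 and 36.9 CPM. Itga4 was 2.78-fold higher after bleaching (2.14 to 3.62), and Fgf2 2.33-fold (1.75 to 3.11). With rolipram they were 4.18-fold (2.91 to 6.15) and 3.09-fold (2.13 to 4.57) lower, and with BC11-38 4.25-fold (2.91 to 6.38) and 3.67-fold (2.43 to 5.71) lower. Rods had Itga4 at 67.5, 157, 71.4 and 34.0 CPM and Fgf2 at 28.3, 51.0, 16.1 and 4.25 CPM, also highest in bleached vehicle. GABAergic amacrine cells had at most 23.4 CPM of Itga4.

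Further genes highest in bleached vehicle were Ccdc85a, Kcnh1, Prex2 and Epha7, though the order of the other libraries differed between genes. Kcnh1, a voltage-gated potassium channel, was at 120, 232, 103 and 64.9 CPM, against at most 5.35 CPM in GABAergic amacrine cells and 0.376 CPM in rods. In marker-rich cells it was 1.54-fold higher after bleaching (1.25 to 1.90) and 2.88-fold lower with BC11-38 (2.11 to 4.002). Ccdc85a was at 52.0, 123, 36.9 and 43.2 CPM, and Epha7, an ephrin receptor, at 123, 273, 115 and 155 CPM. Gm8797 took a different course, at 429, 349, 76.1 and 219 CPM, and was also lowest with rolipram in rods (256, 243, 58.2 and 130 CPM) and Müller glia (328, 301, 55.6 and 194 CPM).

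**Figure D3:**
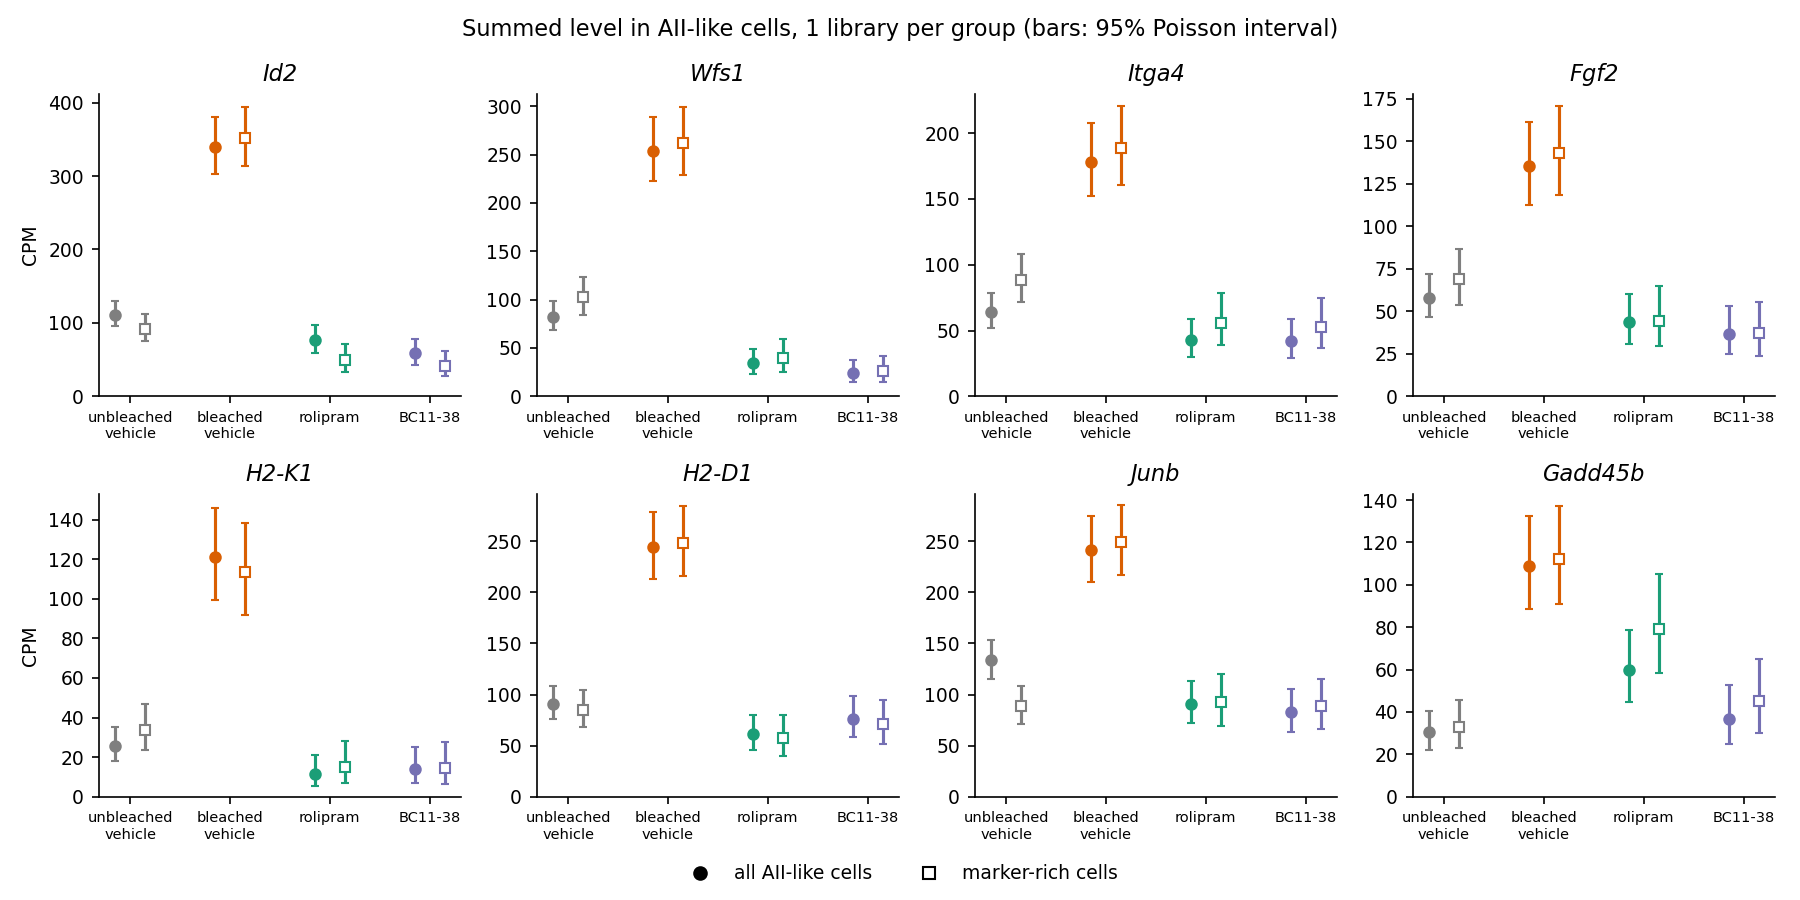
Level (y axis, CPM, linear) of 8 genes in each library (x axis), for all AII-like cells (filled circles) and marker-rich cells (open squares), with exact 95% Poisson intervals of the summed UMIs as bars. In each panel the bleached vehicle library is highest, and only for Gadd45b does its interval meet that of another library, rolipram in marker-rich cells.

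Interferon response genes had the largest median shift of the 29 pathway lists with at least 3 genes counted, in each comparison with bleached vehicle. Of 28 listed genes, 4 were counted after bleaching and all 4 were at least 1.5-fold higher, where 5.66% of all counted genes were higher and 5.78% lower by that much. Their median was 2.05 on the log2 scale, against 0.02 for all genes. With rolipram 3 of 3 counted genes were lower (median -2.44, with 4.62% of all genes lower and 5.33% higher), and with BC11-38 3 of 3 (median -3.06, with 5.41% lower and 4.53% higher). In marker-rich cells the medians were 1.73, -2.26 and -2.91 over 3 genes each. The shares of all genes past 1.5-fold there were 3.57% higher and 3.35% lower after bleaching, 2.80% and 4.27% with rolipram, and 3.26% and 5.06% with BC11-38. The other 24 listed genes had too few UMIs, and a count of 4 genes describes only these.

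The class I antigen-presentation genes of the list were highest in bleached vehicle. H2-K1 was at 25.7, 121, 11.5 and 14.0 CPM, H2-D1 at 91.2, 244, 61.1 and 76.3 CPM, and B2m, their shared light chain, at 20.9, 81.4, 9.22 and 8.90 CPM. H2-K1 and H2-D1 are close copies of each other, so the split of reads between them is uncertain. H2-K1 UMIs were seen in 46 of 115 bleached vehicle cells and in 27 of 145, 10 of 132 and 9 of 94 of the others, against 57.1%, 72.1%, 43.1% and 40.8% of Müller glia. In CPM Müller glia had H2-K1 at 385, 326, 152 and 94.2, highest in the unbleached library. In rods H2-D1 was at 107, 175, 29.7 and 15.5 CPM, also highest in bleached vehicle. In GABAergic amacrine cells H2-K1 was at 12.0, 15.2, 7.64 and 10.5 CPM. Whether the difference between the classes exceeds the spread between mice was not tested.

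The promoters of the 3 class I genes are shown because these genes moved together. Each is the 250 bases before a start in RefSeq on build GRCm38.p6, 5′ to 3′ on the gene's strand. Capitals mark matches, on either strand, to the interferon-stimulated response element (ISRE, written GAAA, NN, GAAA without gaps) and to TGACG, the core that the cAMP response element (CRE, TGACGTCA) and the upstream module of class I genes share.

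B2m: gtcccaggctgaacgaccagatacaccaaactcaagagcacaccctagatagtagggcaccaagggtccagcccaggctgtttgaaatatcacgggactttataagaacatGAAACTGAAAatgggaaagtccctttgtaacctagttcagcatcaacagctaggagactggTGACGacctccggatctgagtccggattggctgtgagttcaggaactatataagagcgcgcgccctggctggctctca
H2-K1: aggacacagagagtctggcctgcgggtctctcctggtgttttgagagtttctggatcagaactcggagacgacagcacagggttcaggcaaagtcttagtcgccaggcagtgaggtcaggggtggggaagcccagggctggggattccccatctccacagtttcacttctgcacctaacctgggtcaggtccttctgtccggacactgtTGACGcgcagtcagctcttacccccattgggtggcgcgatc
H2-D1: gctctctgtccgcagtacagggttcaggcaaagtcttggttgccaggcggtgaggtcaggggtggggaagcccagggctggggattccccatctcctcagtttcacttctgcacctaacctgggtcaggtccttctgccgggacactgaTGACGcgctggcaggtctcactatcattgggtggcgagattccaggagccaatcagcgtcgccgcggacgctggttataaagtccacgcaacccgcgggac

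The B2m promoter spans chr2:122147437-122147686 (plus strand), that of H2-K1 chr17:34000348-34000597 (minus strand, 1 of 2 starts in the table) and that of H2-D1 chr17:35262844-35263093 (plus strand). The H2-K1 stretch lies inside the annotated gene, chr17:33996012-34000619. Positions in it are therefore not comparable with those in B2m and H2-D1. The ISRE letters were found in B2m, from position -139, and in 12 of 24 listed interferon genes in the table, against 3.46% of all 27025 promoters. TGACG was found in all 3, from -78 in B2m, -41 in H2-K1 and -101 in H2-D1, and in 19.8% of all promoters. The full CRE was in 1.77% of all promoters and in none of the 24. A match describes the letters only. Other forms of the ISRE were not searched, and H2-K1 and H2-D1 may hold one.

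The STAT3 and injury list and the immediate early list had medians nearer 0, and not all in the direction of the interferon list. Of all genes counted over all AII-like cells, 5.66% were higher and 5.78% lower after bleaching, 5.33% and 4.62% with rolipram, and 4.53% and 5.41% with BC11-38. In marker-rich cells these shares were 3.57% and 3.35%, 2.80% and 4.27%, and 3.26% and 5.06%. Few members of each list were counted, so the counts below describe only those genes. Over all AII-like cells 3 of 8 counted STAT3 and injury genes were at least 1.5-fold higher after bleaching and 2 lower (median 0.21), with 4 of 6 lower with rolipram (median -1.04) and 4 of 5 lower with BC11-38 (median -0.74). Of the immediate early genes 2 of 9 were higher after bleaching (median 0.06), 1 of 6 lower with rolipram (median -0.08) and 2 of 5 lower with BC11-38 (median -0.42). In marker-rich cells 3 of 5 were higher after bleaching (median 0.83), with 2 of 5 lower with each drug (medians -0.17 and -0.42). Gadd45b, a stress-induced gene of the DNA damage response, was at 30.4, 109, 59.9 and 36.9 CPM, 3.58-fold higher after bleaching (2.50 to 5.22). Gadd45g was at 37.1, 86.9, 32.3 and 57.2 CPM. Stat3 was at 72.9, 89.1, 38.0 and 20.3 CPM, and differed more between drug and vehicle than between bleached and unbleached. Of the STAT3 and injury list in marker-rich cells, 3 of 6 counted genes were higher after bleaching (median 0.77), 2 of 5 lower with rolipram (median -0.50) and 4 of 5 lower with BC11-38 (median -0.76). Junb, a subunit of the AP-1 transcription factor, was at 88.5, 249, 92.3 and 88.4 CPM in marker-rich cells, 2.82-fold higher after bleaching (2.20 to 3.63). Fos and Jun, other AP-1 subunits, were 1.81-fold (1.45 to 2.27) and 1.78-fold (1.36 to 2.33) higher there. In all AII-like cells Fos was at 232, 218, 213 and 225 CPM, 1.07-fold lower after bleaching (0.893 to 1.28). Marker-poor cells held 499 CPM of Fos in the unbleached and 48.4 CPM in the bleached vehicle library. Rods had Fos at 1116, 1987, 1279 and 1095 CPM and Junb at 455, 909, 195 and 86.9 CPM, and Müller glia had 4437 to 6237 CPM of Fos and 2364 to 3661 CPM of Junb, so the part of free RNA in these values was not tested.

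Genes of the AII cell's own circuitry passed 1.5-fold in marker-rich cells at 0 to 2 per list and comparison. The background there was 3.57% higher and 3.35% lower after bleaching, 2.80% and 4.27% with rolipram, and 3.26% and 5.06% with BC11-38. With 6 to 13 members counted, 0 or 1 in a direction is near that share and is no result about a list. Gjd2 in marker-rich cells was 1.01-fold lower after bleaching (0.893 to 1.15), 1.19-fold higher with rolipram (1.03 to 1.36) and 1.03-fold higher with BC11-38 (0.893 to 1.19). In all AII-like cells it was 1.28-fold higher after bleaching (1.13 to 1.46), and the share of marker-rich cells was higher there too. In GABA-free cells the direction turned: Gjd2 was at 702, 551, 728 and 727 CPM, 1.27-fold lower after bleaching (1.12 to 1.45) and 1.32-fold higher with rolipram (1.14 to 1.52) and with BC11-38 (1.14 to 1.53). The direction for Gjd2 thus rests on which cells are taken. Of 13 counted genes of the gap junction and connexin regulation list, 1 was higher (Camk2b, a subunit of the kinase that can potentiate connexin 36, 1.52-fold, 1.08 to 2.13) and 1 lower (Prkar2b, a regulatory subunit of protein kinase A, -0.65 on the log2 scale) after bleaching in marker-rich cells. In GABA-free cells Prkar2b was at 38.6 and 46.6 CPM, the reverse order. With each drug 0 of 10 counted genes passed 1.5-fold. Among glycine transport and release genes, 0 of 6 passed after bleaching and with rolipram. With BC11-38, 1 of 6 did, the glycine receptor subunit gene Glra3, 1.82-fold lower (1.36 to 2.46). Slc32a1, the vesicular transporter that loads glycine and GABA, was at 361, 340, 371 and 368 CPM. Slc6a5, the glycine transporter GLYT2, was at 115, 109, 102 and 106 CPM.

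In the dopamine receptor and G protein list, 0 of 8, 0 of 6 and 0 of 7 counted genes passed 1.5-fold in marker-rich cells after bleaching, with rolipram and with BC11-38, which is again near the background share. In all AII-like cells 1 of 8 was higher and 1 lower after bleaching, 1 of 8 lower with rolipram and 0 of 7 past 1.5-fold with BC11-38. Drd2 in marker-rich cells was at 121, 126, 160 and 124 CPM and Drd4 at 267, 320, 280 and 264 CPM. Drd1, the D1 receptor through which dopamine is known to uncouple AII cells, was at 15.1, 5.91, 16.5 and 20.9 CPM in marker-rich and 54.9 to 80.5 CPM in marker-poor cells, below the count needed for a comparison. In the glutamate receptor list, Gria3, an AMPA receptor subunit, was 1.61-fold higher after bleaching in marker-rich cells (1.39 to 1.87) and 1.02-fold lower with rolipram than in bleached vehicle (0.875 to 1.19). The lower calls of that list in all AII-like cells, such as Grin2b and Gria1, were not countable in marker-rich cells, except Cacng4 at 8.41-fold lower (4.53 to 17.3). Gabra3, a GABA-A receptor subunit, was 1.65-fold higher after bleaching (1.15 to 2.37).

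Vsnl1, a neuronal calcium sensor, was at 111, 48.4, 64.3 and 109 CPM in marker-rich cells, lower in bleached vehicle and rolipram than in the other 2 libraries. Prox1, a transcription factor used as an AII marker, was at 610, 884, 786 and 583 CPM in marker-rich cells, 1.45-fold higher after bleaching (1.30 to 1.61), and 1.17-fold in GABA-free cells (1.05 to 1.31). Neurod1, which is known in photoreceptors as well, was 1.53-fold higher (1.31 to 1.79), and 1.91-fold lower with BC11-38 (1.56 to 2.33), with rods at 2689, 3413, 1976 and 1675 CPM, also highest in bleached vehicle and lowest with BC11-38.

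The enzymes that make and degrade cAMP included the drug targets. Pde11a, the target of BC11-38, had 2, 0, 0 and 1 UMIs in AII-like cells, so a count of 3 or fewer stands behind every library. Of the 4 PDE4 genes, Pde4c had 1, 0, 1 and 0 UMIs. Pde4a was at 69.7, 54.3, 110 and 57.8 CPM in marker-rich cells, 2.03-fold higher with rolipram than in bleached vehicle (1.38 to 3.03). Pde4d was at 55.6, 36.6, 56.0 and 40.2 CPM, and Pde4b at 36.7, 9.45, 29.7 and 28.9 CPM in marker-rich cells, near 0 in GABA-free cells (2.76, 0, 8.25 and 4.57 CPM). Pde10a, which degrades cAMP and cGMP, was at 111, 43.7, 97.2 and 138 CPM in marker-rich cells and 2.54-fold lower after bleaching (1.74 to 3.79). In GABA-free cells it was at 44.1, 38.8, 43.3 and 32.0 CPM, 1.14-fold lower after bleaching (0.669 to 1.94). Adcy1, a calcium-activated adenylyl cyclase, was at 53.7, 99.2, 47.8 and 36.9 CPM in marker-rich cells. Rods held 186 to 229 CPM of it. Adcy1 was 1.85-fold higher after bleaching (1.31 to 2.63) and 2.08-fold lower with rolipram (1.35 to 3.28) and 2.69-fold lower with BC11-38 (1.68 to 4.46). CREB targets, the genes known to respond to cAMP, had medians of -0.17, 0.05 and 0.14 over 5 counted genes. Scg2, a secretory granule protein and CREB target, was at 460, 201, 244 and 392 CPM in marker-rich cells, and at 240, 185, 214 and 242 CPM in GABA-free cells.

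Cholesterol synthesis genes were higher with the drugs over all AII-like cells, with medians nearer 0 in each narrower set of cells. With rolipram 7 of 9 counted genes were at least 1.5-fold higher (median 1.06, beside 5.33% of all genes), and with BC11-38 5 of 10 (median 0.61, beside 4.53%). In marker-rich cells these were 2 of 5 (median 0.53, beside 2.80%) and 2 of 7 (median 0.29, beside 3.26%). After bleaching 4 of 12 were lower in all AII-like cells (median -0.43, beside 5.78%) and 2 of 8 in marker-rich cells (median -0.07, beside 3.35%). In GABA-free cells 1 of 4 was higher with rolipram (median 0.20) and 0 of 3 with BC11-38 (median 0.12), and 1 of 5 was higher after bleaching (median 0.18). There 3.60% of all counted genes were higher and 1.65% lower after bleaching, 2.94% and 4.95% with rolipram, and 2.12% and 6.06% with BC11-38. Hmgcs1, which makes the precursor of mevalonate, was at 183, 110, 239 and 192 CPM in all and 127, 106, 153 and 130 CPM in marker-rich cells. Insig1, which restrains sterol synthesis, was 1.82-fold higher with rolipram in marker-rich cells (1.29 to 2.58) and 1.09-fold lower with BC11-38 (0.722 to 1.65). For 43 nuclear genes of oxidative phosphorylation the marker-rich median was 0.19 after bleaching, and -0.14 and -0.11 with rolipram and BC11-38, with 0 past 1.5-fold.

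**Figure D4:**
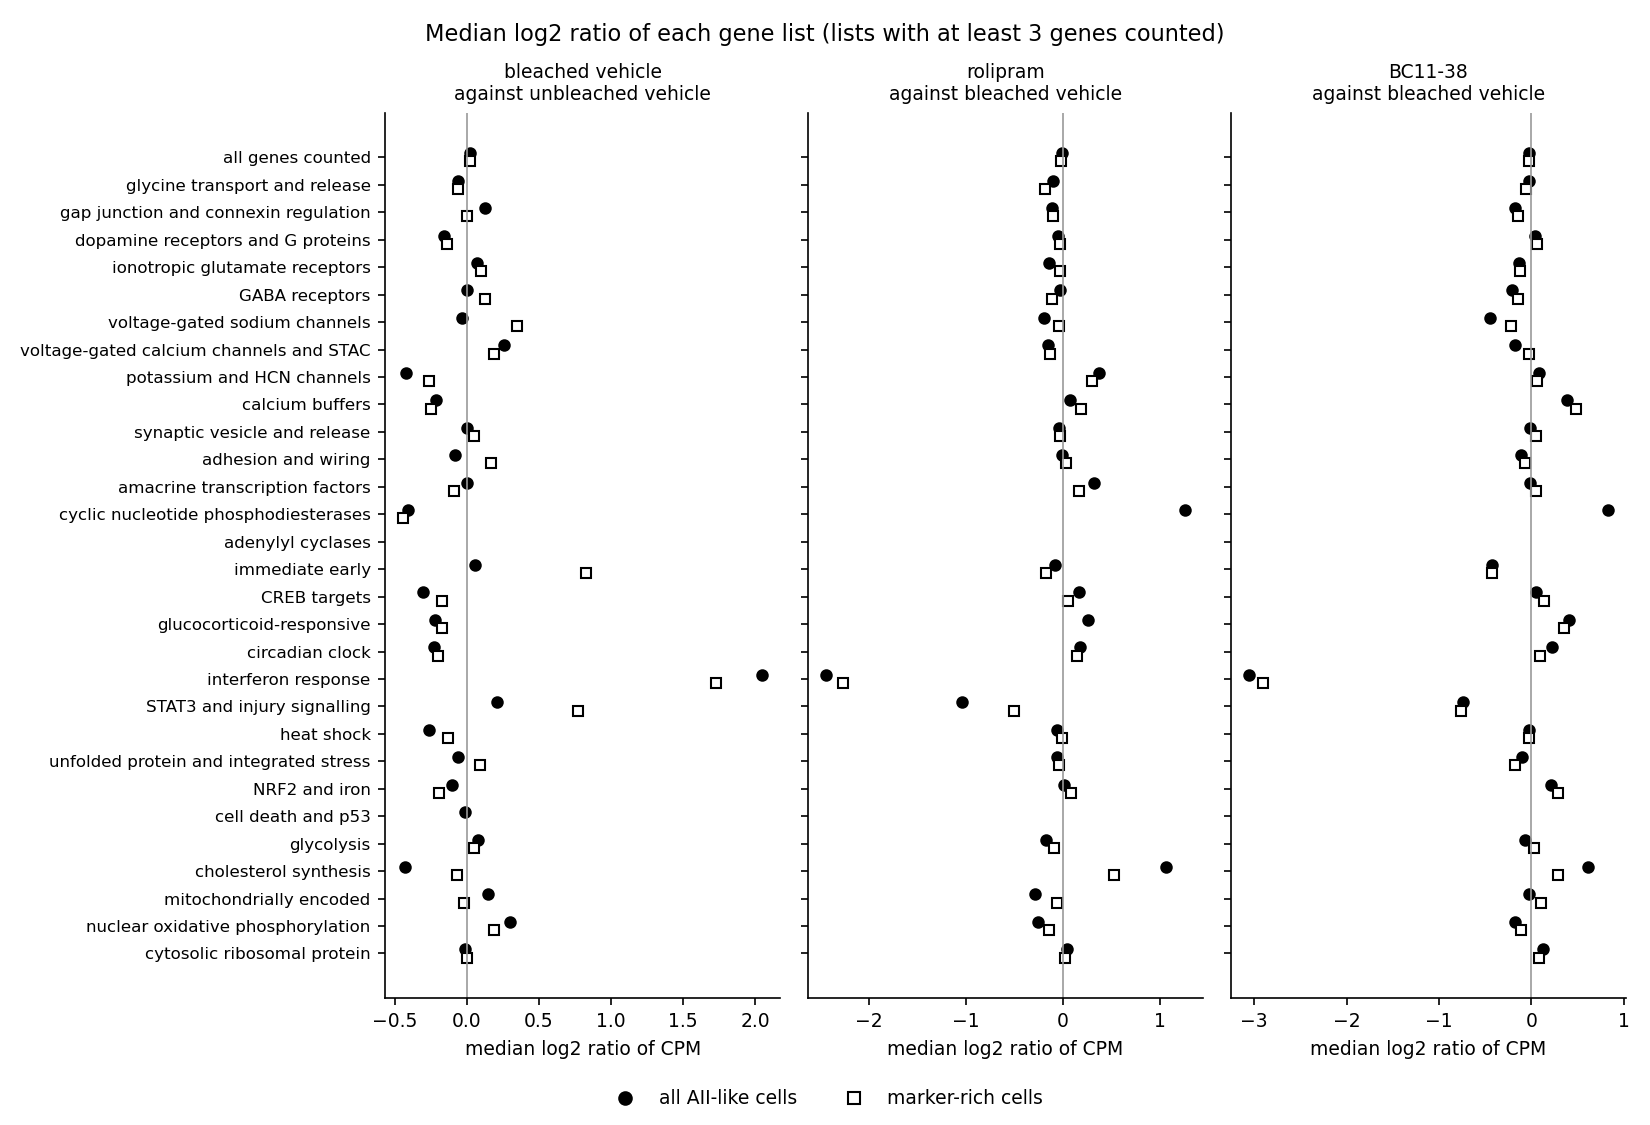
Median log2 ratio of CPM (x axis) of each gene list (y axis) in 3 comparisons, for all AII-like cells (circles) and marker-rich cells (squares), with all counted genes in the top row. The interferon list lies at 2.05, -2.44 and -3.06 in all AII-like cells, and the gap junction list lies between -0.18 and 0.13.

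The direct comparison of the 2 drugs, at the same dose and time, gave few differences. Of the 13 genes past 2-fold, the rule named 4: Grin2b, higher with rolipram (94.5 against 45.8 CPM, 2.06-fold, 1.38 to 3.15), and Cartpt, Tac2 and 6330403K07Rik, lower. The Cartpt and Tac2 UMIs of the BC11-38 library lay mostly in 1 cell each (82.3% and 100%), and 44.7% of 6330403K07Rik UMIs did. Genes highest in bleached vehicle did not all stand alike in the drug libraries. Kcnh1 was 1.58-fold higher with rolipram than with BC11-38 (1.11 to 2.28), and Id2 1.30-fold (0.879 to 1.94), an interval that includes no difference. Below the count needed for a call, Wfs1 was 1.43-fold (0.780 to 2.69) and Gadd45b 1.62-fold higher with rolipram (1.01 to 2.66), while Gadd45g was 1.77-fold higher with BC11-38 (1.08 to 2.95). Itga4 was at 42.6 and 42.0 CPM. An interval that includes no difference does not show that the compounds act alike.

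The bleached vehicle library differed from the rest in sex as well as in treatment, so the comparisons were repeated in male cells, taken as those with a Y-linked UMI and none of Xist: 58, 102, 32 and 52 cells. There Id2 was 1.31 higher on the log2 scale after bleaching, Wfs1 1.35 higher and Itga4 1.66 higher, and the interferon list had a median of 2.16. Against bleached vehicle, Id2 was at -2.77 with rolipram and -2.74 with BC11-38, and Wfs1 at -2.77 and -3.50, with interferon medians of -1.97 and -3.31. These values rest on the same mice and libraries, and library, batch and treatment cannot be told apart with 1 library per group.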

How the data were processed

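Single-cell libraries of dissociated retina were made with 10x Genomics v3 chemistry, 1 library per group from 4 pooled retinae. The deposited values are natural log values of 1 plus UMIs per 10000 in each cell, made by the authors before deposit, as read from the files. The submitters' processing notes name Cell Ranger 6.0.1, Seurat 3.2.2 and the mm10 build; the settings and any use of strand were not given in the sources used here. Undoing the log gave whole UMIs for 100% of values above 0 (within 0.001), or 140410160 UMIs, and library totals were 28983626 to 44386442. UMIs were summed over AII-like cells of a library (786462 to 1480611) and given as CPM. Ratios carry exact conditional Poisson 95% intervals, shares exact Clopper-Pearson ones, and both cover counting error only. With 1 library per group no test was run. The scripts were tested on simulated data.

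Genes entered a comparison with 100 UMIs or more over both libraries. Named genes were the 10 higher and 10 lower past 2-fold with the interval bound farthest from 1, without the 12 genes of the rule, Xist, Tsix and Y-linked genes, and without genes at a higher level in rods, Müller glia or bipolar cells. Against other glycinergic cells 12 higher and 8 lower genes were named, with 20 UMIs or more in AII-like cells of every library. Members of 29 pathway lists and the PDE4 and PDE11 genes were also named. The members and lists were chosen with earlier results of these data known. No doublet caller was run; cells above 2 times the median UMIs were left out in an alternative. Other alternatives changed the rule, depth, filters, scaling and cell set. The marker-rich and GABA-free sets were chosen after seeing the data. Results for some genes are not reported here. Software was Python 3.11.15, numpy 2.4.6, pandas 2.3.3, scipy 1.17.1 and matplotlib 3.10.9.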

Additional observations from a re-analysis of the deposited data

How the results depend on the processing

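No paired analysis was possible because each group is a single library. Counts of genes past 2-fold are given in the order bleaching, rolipram, BC11-38 and rolipram against BC11-38, from 158, 98, 83 and 13. Without a filter on low counts they were 1917, 1821, 1861 and 1418, and with 300 UMIs or more 32, 20, 14 and 3. A stricter rule asked for 2 or more UMIs each of Slc6a9 and Lamp5, and for any UMI of Tfap2b, of Scn1a and of Stac2. It gave 50, 37, 39 and 5, and the rule on UMIs thinned to 3000 gave 76, 46, 36 and 4. Marker-rich cells gave 62, 42, 50 and 13, and GABA-free cells 18, 36, 35 and 8. Male cells gave 96 after bleaching. Other scaling, equal weight for cells and leaving out large cells kept the counts within 1.5 times. Of the bleaching calls, 56 of 158 were also called in marker-rich cells.

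The percent of cells that were AII-like is given for unbleached vehicle, bleached vehicle, rolipram and BC11-38. The stricter rule gave 1.439, 1.278, 0.8867 and 0.8953%, and marker-rich cells alone 1.685, 1.527, 1.153 and 1.14%. A looser rule gave 3.598, 1.953, 2.47 and 2.36%. The rule thinned to 3000 UMIs gave 2.521, 2.202, 2.063 and 1.69%, and thinned to 2000 UMIs 1.483, 1.365, 0.9344 and 0.8959%.

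The STAT3 and injury median with BC11-38 was 0.0 without a filter on low counts, against -0.74. The interferon median lay between 1.45 and 2.18 after bleaching, between -2.43 and -1.94 with rolipram and between -3.31 and -1.67 with BC11-38 over the alternatives run. The cholesterol median after bleaching lay between -0.55 and 0.18, so its sign depends on the setting. Causes were not tested. Replicate spread is unknown, and genes under 100 UMIs, Pde11a among them, could not be compared at this depth.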
